A study of Mus musculus with 6 samples.

Results

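The cytosolic ribosome is built from ribosomal RNA and a fixed set of proteins, named Rpl for the large subunit and Rps for the small one. The genes examined here were those whose platform symbol is Rpl or Rps with a number, together with Rplp0, Rplp2 and Rpsa. Ribosomal S6 kinases, pseudogenes and probe sets that carry several symbols were left out. With the probe set of highest mean signal taken for each gene, this gave 45 of the 18182 genes measured. A further 28 symbols of the same kind, among them Rpl3, Rpl5, Rpl10 and Rplp1, sat only on probe sets shared with other symbols and are not described.

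Cells make the ribosomal proteins in near equal numbers, and their genes are among the most strongly transcribed of a growing cell. Their messenger RNAs start with a C and a run of pyrimidines, the 5′ terminal oligopyrimidine tract, through which the kinase mTOR and the RNA-binding protein LARP1 set how much of each is translated. Output of ribosomal proteins can therefore change without a change of the RNA level that an array measures. A few genes have paralogues with a narrower range of tissues, such as Rpl3l, the form of Rpl3 found in heart and skeletal muscle.

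RNA came from limb cells that carried nuclear GFP from a Pax7 transgene (Tg:Pax7-nGFP) on a mixed C57BL/6:DBA2 background. Pax7 is the transcription factor of muscle stem and progenitor cells. GFP-positive cells were sorted from E17.5 fetuses and from E12.5 limb buds, with 3 arrays per age (A, B and C) that the labels call biological replicates, without naming embryos or litters. All 6 arrays carry the transgene and no cells without it were measured, so the only contrast is E17.5 against E12.5.

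Values are log2 signals after GCRMA, a method that corrects background, normalizes arrays and summarises probes. A difference is the E17.5 mean less the E12.5 mean, in log2 units. Each was tested with limma over all 18182 genes, adjusted by Benjamini-Hochberg and called at an adjusted p under 0.05. Arrays A and B of E17.5 were close to copies of each other, with an SD of their difference of 0.05 over the 33 ribosomal protein genes of mean signal 13 or more. The other same-age pairs had SDs between 0.12 and 0.28, and the counts of called genes are also given with the mean of A and B as 1 sample. Pax7 itself averaged 12.37 ± 0.15 at E17.5 and 11.46 ± 0.28 at E12.5 (SD, n = 3 each). Of 7 muscle progenitor markers, 2 were called higher, Pax7 and Itga7, and 1 lower, Pax3 (by -2.56). Itga7 rose by 6.84 from an E12.5 mean of 2.22. Of the marker lists of other cell types, that of red blood cells differed most in summed signal. It lay between 5.64 and 6.30 (log2) on E17.5 arrays and between 13.03 and 14.94 on E12.5 arrays, with 3 of 5 measured markers lower at E17.5. These 3 were Hbb-y, Hbb-bh1 and Hba-x, with differences of -10.41, -4.11 and -4.33. Alas2 and Epor lay the other way, by 0.69 and 0.33, without passing the test, and Epor had a mean under 4. The summed signal of 5 endothelial markers lay between 10.11 and 10.38 at E17.5 and between 6.25 and 7.49 at E12.5, with 1 of the 5 higher (Tek, by 4.88). The other 4 did not pass the test, with differences of -1.37 for Kdr, -0.83 for Cldn5, -0.35 for Cdh5 and 0.00 for Pecam1, and Pecam1, Cdh5 and Cldn5 had means under 4. Of 6 fibroblast markers, 2 were called higher (Dpt by 9.04, Col1a1 by 2.76) and 2 lower (Pdgfra by -3.68, Twist2 by -3.21). Of 5 epidermis markers 2 were called lower (Epcam, Trp63), and of 6 leukocyte markers 2 higher (Cd68, Lyz2). No chondrocyte or Schwann and neural marker was called. The part of such cells in the values below was not tested. In sorted bulk RNA, fewer cells of a type and less RNA per cell cannot be told apart.

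Of the 45 ribosomal protein genes, 0 rose and 1 fell at E17.5 (2.22% called), where 16.9% of all genes were called, 8.21% higher and 8.73% lower. The gene that fell was Rps27l, a paralogue of Rps27. At an unadjusted p under 0.05 there were 3 genes, Rpl14 on the higher side and Rps27l and Rps10 on the lower. Over all 18182 genes that threshold gave 2342 higher and 2825 lower. The median difference was -0.05 over the 45 genes and 0.00 over all genes, and 26 genes lay below 0 and 19 above. Over all 99 probe sets of these genes 65 lay below 0 and 33 above. The median absolute difference was 0.0767 over the ribosomal protein genes and 0.17 over all genes. The members ranged from -0.66 for Rpl37 to 0.71 for Rpl27a.

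How much of a change the 6 arrays could have missed was read from the 95% intervals of limma. These intervals count E17.5 A and B as separate samples and are not given with their mean as 1 sample. If A and B are not separate samples, the intervals may be too narrow. The 5 genes of mean signal under 4 (Rpl39, Rps16, Rps27, Rpl39l and Rpl3l) say nothing here, since their intervals describe a low GCRMA signal. Of the other 40 genes, the interval stayed within 1.5-fold in either direction for 29 and within 2-fold for 37. The 3 with wider intervals were Rpl12, Rpl27a and Rpl37. A miss of the threshold does not show equal levels, and for these 3 genes a change of more than 2-fold lies inside the interval.

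**Figure D1:**
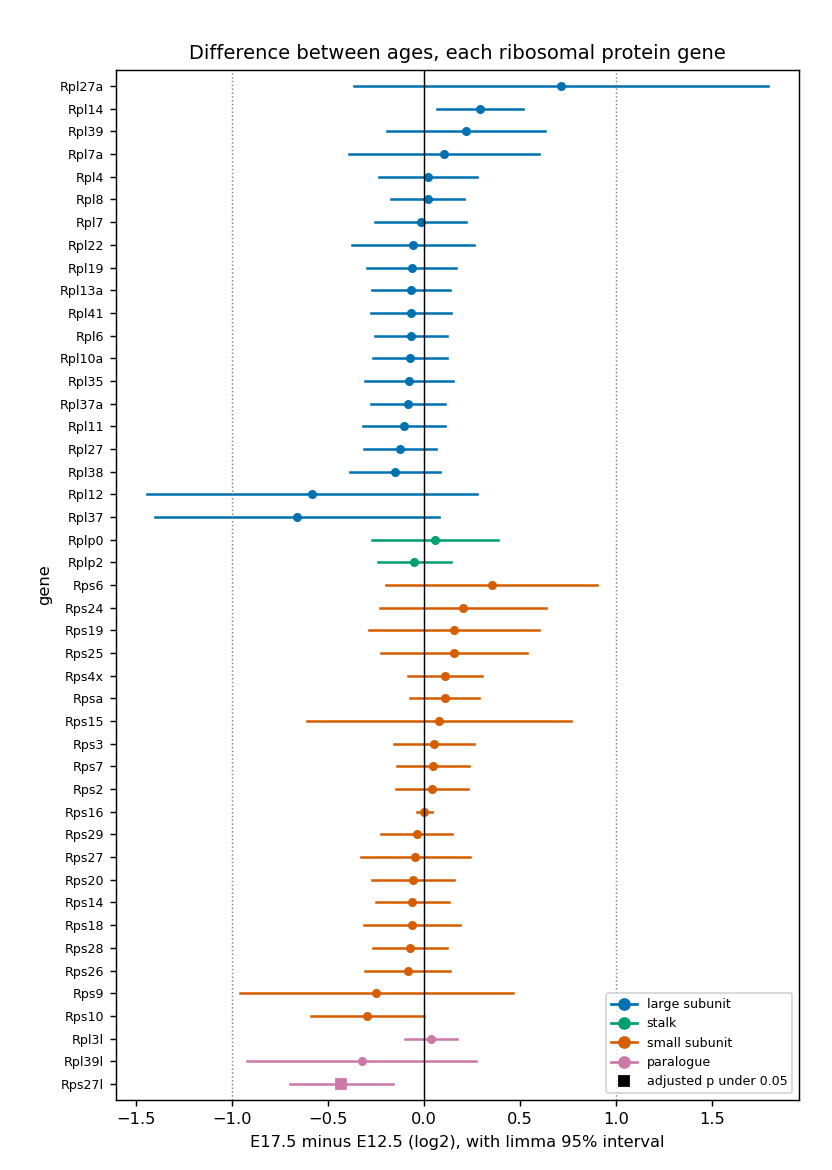
Difference between E17.5 and E12.5 (log2) for each of the 45 ribosomal protein genes, with the limma 95% interval as a bar, coloured by role and ordered by difference within a role. The dotted lines mark 2-fold. Only Rps27l, drawn as a square, had an adjusted p under 0.05, and the bars of Rpl12, Rpl27a and Rpl37 cross a dotted line.

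The arrays of both ages were also compared directly, without a model. The 3 E17.5 arrays and the 3 E12.5 arrays did not overlap for 6 of the 45 genes (13.3%), against 31.4% of all genes (14.2% higher and 17.2% lower at E17.5). Rpl14, Rps4x and Rpsa lay higher on every E17.5 array, and Rpl27, Rps27l and Rps28 lay lower on every E17.5 array. Except for Rps27l, none of these 6 passed the test.

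Most members, 33 of the 45, had a mean signal of 13 or more. Among them 0 were called by limma, 1 (Rps10) had an unadjusted p under 0.05, and their differences ran from -0.29 to 0.20 with a median of -0.06. Their 95% intervals, which count E17.5 A and B as separate samples, stayed within 2-fold in 33 of 33 cases and within 1.5-fold in 27. Among the 261 other genes of mean signal 13 or more, 12.3% were called, 23 higher and 9 lower, and their differences ran from -0.97 to 1.87. Of these 261 genes, 74 had an unadjusted p under 0.05. The arrays of both ages did not overlap for 4 of the 33 ribosomal protein genes (12.1%) and for 37.9% of the 261 others. The median absolute difference was 0.0667 for the ribosomal protein genes and 0.137 for the others.

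Genes of mean signal 14 or more gave similar values. Of 27 ribosomal protein genes 0 were called, with a median absolute difference of 0.0633. Of 66 other genes 12.1% were called, all of them higher, with a median absolute difference of 0.128. These shares describe the lists and were not tested against each other. A small log2 difference at a high signal does not by itself show an even RNA level. In 15 of the 19 genes with several probe sets of mean signal 6 or more, the brightest probe set gave a smaller absolute difference than the dimmest of them, and in 4 a larger one. Among the 13 genes with several of mean signal 13 or more it was 8 against 5. In Rpl13a the difference went with signal, from -0.07 at a mean of 15.32 to -0.34 at a mean of 13.09. The part of signal compression near the top of the scale was not tested.

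**Figure D2:**
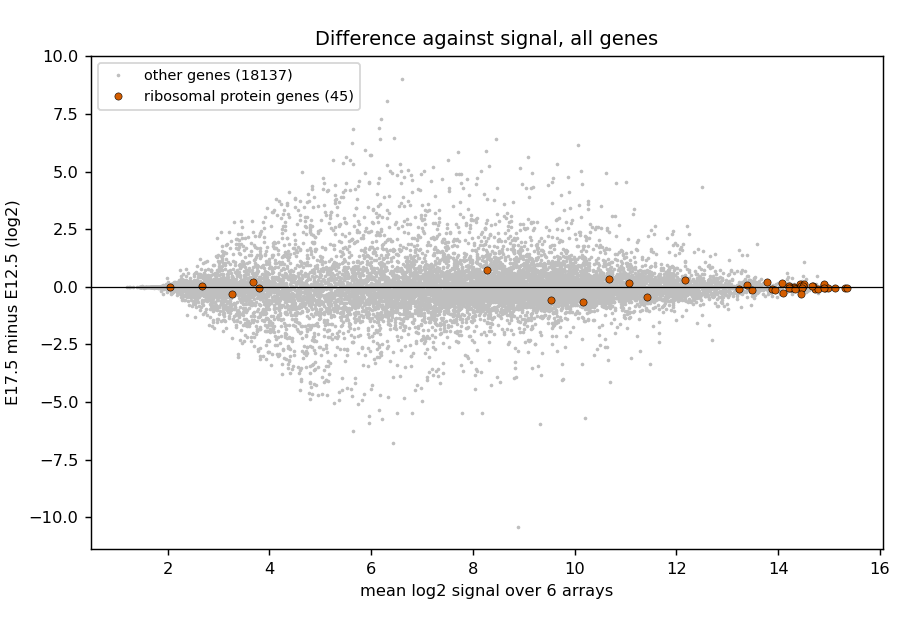
Difference between E17.5 and E12.5 (log2) against mean log2 signal over 6 arrays, with the 45 ribosomal protein genes in orange and the other genes in grey. The 33 orange points of mean signal 13 or more lie between -0.29 and 0.20, while other genes of that signal range from -0.97 to 1.87.

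The RefSeq starts of these genes were searched for the pyrimidine tract. RefSeq promoter sequences of GRCm38.p6 were found for 40 of the 45 genes. A run of at least 8 pyrimidines lay within 20 bases of a listed start in 19 of the 40 (47.5%), against 18.4% of the 27025 genes in the table. A C at the listed start base itself, followed by at least 4 more pyrimidines, was found in 8 of 40 (20%), against 3.01% of all genes. The 40 bases around the start of these 8 genes are shown because they hold the tract of the textbook form, which no listed start of the other 32 has. The longest pyrimidine run is in capitals, the listed start is base 21, and all are written 5′ to 3′ on the strand of the gene.
Rpl14 (large subunit, chr9:120571497-120571536, plus strand): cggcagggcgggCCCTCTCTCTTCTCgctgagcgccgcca
Rpl35 (large subunit, chr2:39005112-39005151, minus strand): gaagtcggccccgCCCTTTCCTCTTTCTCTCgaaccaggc
Rpl38 (large subunit, chr11:114668560-114668599, plus strand): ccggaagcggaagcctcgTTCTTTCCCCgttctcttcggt
Rplp2 (stalk, chr7:141447631-141447670, plus strand): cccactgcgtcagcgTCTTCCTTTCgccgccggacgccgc
Rps6 (small subunit, chr4:86857348-86857387, minus strand): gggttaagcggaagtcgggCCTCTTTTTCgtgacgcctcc
Rps10 (small subunit, chr17:27635225-27635264, minus strand): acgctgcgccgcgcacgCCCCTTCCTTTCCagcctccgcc
Rps18 (small subunit, chr17:33955646-33955685, minus strand): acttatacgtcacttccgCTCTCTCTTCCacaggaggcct
Rps27 (small subunit, chr3:90213629-90213668, minus strand): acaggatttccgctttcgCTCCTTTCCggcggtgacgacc

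The starts of the paralogue Rps27l are shown because it is the gene that fell. RefSeq lists a pair of starts for it, and like those of 32 of the 40 genes neither opens with a C and at least 4 more pyrimidines. The longest run at the first is 9 bases long, which puts Rps27l among the 19 genes with a run of at least 8, and the longest at the second is 4 bases long.
Rps27l, first start (chr9:66946066-66946105, plus strand): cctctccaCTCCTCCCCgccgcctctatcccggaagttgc
Rps27l, second start (chr9:66946393-66946432, plus strand): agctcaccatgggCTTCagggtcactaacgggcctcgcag

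Motifs of common promoter factors were searched on both strands of the 300-base window around each start. The ETS core CCGGAA was present in 26 of 40 ribosomal protein genes (65%), against 16.7% of all genes. The SP1 motif GGGCGG was present in 55% of the ribosomal protein genes and 38.2% of all genes, and the E-box CACGTG in 10% and 8.09%. The YY1 motif AAGATGG was present in 7 of 40, against 7.28% of all genes, and the TATA motif TATAAA in 5 of 40, against 15.7%. A match is only a run of letters, and these starts are RefSeq's, not starts mapped in the sorted cells.

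Large-subunit genes were represented by 20 members besides the stalk, with a median difference of -0.07 and 14 values below 0. None was called, and 1 of the 20, Rpl14, had an unadjusted p under 0.05. Rpl14 had 12.30, 12.27 and 12.39 at E17.5, against 12.15, 11.98 and 11.95 at E12.5. All 3 fetal arrays lay above all 3 embryonic arrays. The difference was 0.29 ± 0.09 (SE) with an adjusted p of 0.0824. It was called in 4 of 20 alternative analyses, with adjusted p-values from 0.00123 to 0.25.

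Rpl38, whose loss in the mouse Tail short mutant disturbs the patterning of the axial skeleton, had 13.84, 13.76 and 13.97 at E17.5, against 13.92, 13.99 and 14.11 at E12.5. The ages overlapped, and its difference was -0.15 ± 0.10 (SE; adjusted p = 0.42). Rpl27 had 13.43, 13.38 and 13.45 at E17.5, against 13.50, 13.53 and 13.60 at E12.5. Its 3 fetal arrays lay below its 3 embryonic arrays by a narrow margin, with a difference of -0.12 ± 0.08 (SE; adjusted p = 0.408).

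Rpl11, which binds the p53 regulator MDM2 when ribosome assembly fails, differed by -0.10, with 13.82 ± 0.04 at E17.5 and 13.93 ± 0.11 at E12.5 (SD, n = 3 each). Rpl13a, a subunit protein that can also restrain translation of inflammatory mRNAs, differed by -0.07. Rpl41, the smallest ribosomal protein, differed by -0.07 as well, and Rpl22, which is needed by developing T cells, by -0.06. In these 4 genes the ages overlapped and the adjusted p lay between 0.592 and 0.895. Rpl4, Rpl6, Rpl7, Rpl8, Rpl10a, Rpl19 and Rpl37a also overlapped between ages, with differences between -0.08 and 0.02.

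The widest differences of the large subunit came from 3 genes whose probe sets had mean signals near 8 to 10. Rpl37 had 9.55, 9.52 and 10.45 at E17.5, against 10.05, 10.61 and 10.84 at E12.5. Array C of E17.5 fell among the E12.5 arrays, and the difference of -0.66 ± 0.31 (SE) had an adjusted p of 0.229. Without that array Rpl37 was the one ribosomal protein gene called lower.

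Rpl12, a protein of the factor-binding centre, had 9.73, 9.57 and 8.44 at E17.5, against 9.63, 10.21 and 9.64 at E12.5. Array C was the lowest of the 6, and the difference was -0.58 ± 0.36 (SE; adjusted p = 0.391). Rpl27a had 8.57, 8.91 and 8.45 at E17.5, against 8.43, 6.84 and 8.52 at E12.5. Its difference of 0.71 ± 0.45 (SE; adjusted p = 0.403) followed 1 low array, E12.5 B, and the other arrays of both ages lay within 8.43 to 8.91. Rpl39, a protein of the exit tunnel, had a mean signal of 3.68, in the low range where GCRMA places probe sets with little specific signal, and gives no level to compare.

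The stalk recruits the elongation factors to the large subunit. Rplp0, its base, had 14.95, 14.97 and 14.89 at E17.5, against 14.59, 14.96 and 15.08 at E12.5. Rplp2 had 14.88, 14.90 and 14.88 at E17.5, against 14.87, 14.97 and 14.97 at E12.5. Both overlapped between ages, with differences of 0.06 ± 0.14 and -0.05 ± 0.08 (SE).

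Small-subunit genes were represented by 20 members with a median difference of 0.02, 9 of them below 0. None was called, and 1 of the 20, Rps10, had an unadjusted p under 0.05. Rps10, a protein near the mRNA entry channel, had 14.23, 14.22 and 14.44 at E17.5, against 14.39, 14.64 and 14.74 at E12.5. The ages overlapped through E17.5 C and E12.5 A alone. Its difference was -0.29 ± 0.12 (SE) with an adjusted p of 0.176.

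Rps4x, the X-linked gene of a core small-subunit protein, had 15.01, 14.98 and 14.90 at E17.5, against 14.83, 14.84 and 14.89 at E12.5. Rpsa, once described as a laminin receptor, had 14.57, 14.58 and 14.56 at E17.5, against 14.48, 14.43 and 14.47 at E12.5. Both lay higher on every fetal array, by 0.11 ± 0.08 (SE) in each case. Their adjusted p-values were 0.493 for Rps4x and 0.452 for Rpsa. Rps28, close to the mRNA exit, lay the other way, with 15.10, 15.04 and 15.09 at E17.5, against 15.11, 15.12 and 15.21 at E12.5, and a difference of -0.07 (adjusted p = 0.727).

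Rps6, the protein phosphorylated by S6 kinases downstream of mTOR, had 10.45, 10.75 and 11.34 at E17.5, against 10.58, 10.30 and 10.60 at E12.5. Array A lay inside the embryonic range and B and C above it, and the difference was 0.35 ± 0.23 (SE; adjusted p = 0.422). Rps19, the gene most often mutated in Diamond-Blackfan anaemia in humans, differed by 0.16 ± 0.19 (SE; adjusted p = 0.74). Rps25 also differed by 0.16 ± 0.16 (SE; adjusted p = 0.671). Rps2, Rps7, Rps14, Rps20 and Rps26 overlapped between ages, with differences between -0.08 and 0.05.

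Rps29 had the highest mean signal of all members, with 15.32, 15.31 and 15.35 at E17.5, against 15.34, 15.35 and 15.40 at E12.5, a difference of -0.04 ± 0.08 (SE). Rps16 had the lowest, with a mean of 2.06, and the probe set chosen for Rps27 had a mean of 3.80. For both, as for Rpl39, the signal was in the low GCRMA range, and the small differences of 0.00 and -0.04 do not describe the RNA.

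**Figure D3:**
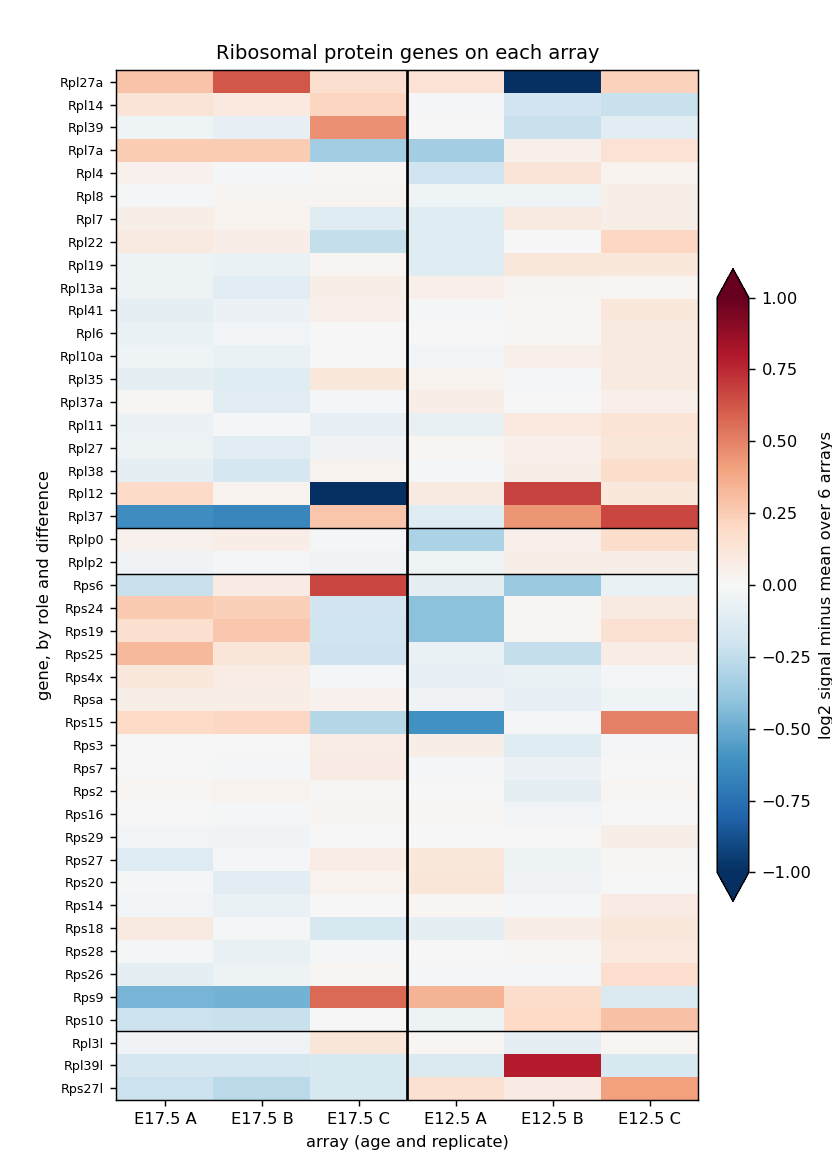
Log2 signal of each ribosomal protein gene on each of the 6 arrays, minus the mean of the gene over the arrays (red above, blue below, scale ending at 1 in either direction), with E17.5 left of the thick line and E12.5 right of it and genes ordered by role. Few rows change colour at the line, Rps27l and Rpl14 among them, and several rows pair E17.5 C with E12.5 A.

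Of the 3 paralogues 1 was called. Rps27l, which in human cells is induced by p53, had 11.20, 11.15 and 11.26 at E17.5, against 11.57, 11.50 and 11.83 at E12.5. Every fetal array lay below every embryonic array. The means were 11.20 ± 0.06 at E17.5 and 11.63 ± 0.17 at E12.5 (SD, n = 3 each), a difference of -0.43 ± 0.11 (SE) or 1.35-fold lower at E17.5, with an adjusted p of 0.0439. The 95% interval ran from -0.70 to -0.16.

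Other probe sets of Rps27l lay in the same direction. The 3 probe sets gave -0.43, -0.32 and -0.33, and the second had 11.21, 11.25 and 11.25 at E17.5, against 11.40, 11.46 and 11.81 at E12.5. All 3 have a letter suffix in their names (_x_at, _a_at and _x_at), and which transcripts they detect was not tested. When each was tested on its own among all probe sets with 1 symbol, the adjusted p-values were 0.0632, 0.196 and 0.299 and none was called. The call was near the threshold: it held in 7 of 19 alternatives, with adjusted p-values from 0.000266 to 0.409. It was lost when any 1 of the 6 arrays was left out (0.0528 to 0.166) and with the replicate letter as a block (0.0852). With the mean of E17.5 A and B as 1 sample its adjusted p was 0.152, and 10.2% of all genes were called.

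Rpl39l, a testis form of Rpl39, had 3.10, 3.10 and 3.11 at E17.5, against 3.12, 4.05 and 3.11 at E12.5. All arrays but E12.5 B were in the low range. Rpl3l, the striated muscle form, had 2.64, 2.64 and 2.79 at E17.5, against 2.69, 2.58 and 2.69 at E12.5, so no signal above the low range was seen at either age.

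The 45 genes were measured by 99 probe sets, 23 of the genes by several. Tested on their own, 0 of the 99 were called higher and 2 lower, where 11.3% of all probe sets with 1 symbol were called, 5.75% higher and 5.59% lower. At an unadjusted p under 0.05 there were 2 higher and 11 lower of the 99. Over all 34909 probe sets with 1 symbol that threshold gave 3816 higher and 4347 lower. Of the 57 probe sets of mean signal 13 or more, 45 lay below 0 and 12 above. Probe sets of 1 gene are not independent. The 2 called probe sets belong to genes whose other probe sets were not called. One probe set of Rpl13a had 12.93, 12.93 and 12.89 at E17.5, against 13.16, 13.31 and 13.31 at E12.5, with a difference of -0.34 and an adjusted p of 0.04. The other 3 probe sets of Rpl13a gave -0.07, -0.18 and -0.29. One probe set of Rpl35 had 4.31, 4.03 and 3.97 at E17.5, against 5.28, 5.21 and 5.30 at E12.5, with a difference of -1.16 and an adjusted p of 0.0132. The other 5 probe sets of Rpl35, all of mean signal above 14, gave differences between -0.14 and -0.07.

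Differences of single probe sets were largest in the middle of the signal range. The median absolute difference was 0.07 over the 57 probe sets of mean signal 13 or more, 0.313 over the 26 with a mean from 6 up to 13 and 0.0683 over the 16 below 6. The spread between arrays of 1 age was largest there too, with median SDs of 0.0868, 0.333 and 0.108 in the same order. Rps9 gave -0.25 and -0.03 with its brighter probe sets, and -1.73 with the third, which had 7.16, 6.89 and 5.01 at E17.5, against 7.79, 8.45 and 8.0 at E12.5. Of Rps24 the 4 probe sets of mean signal above 12 gave 0.09 to 0.27, and the one of mean 9.80 gave -0.61. All 6 probe sets of Rps10 lay lower at E17.5, from -0.72 to -0.11, and none was called. Rps3 gave 0.05 with its brightest probe set and 0.58 with the next, where E17.5 C stood at 12.45 and the other arrays lay between 10.08 and 11.54. Among the 13 genes with several probe sets of mean signal 13 or more, the probe sets had 1 sign in 12.

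**Figure D4:**
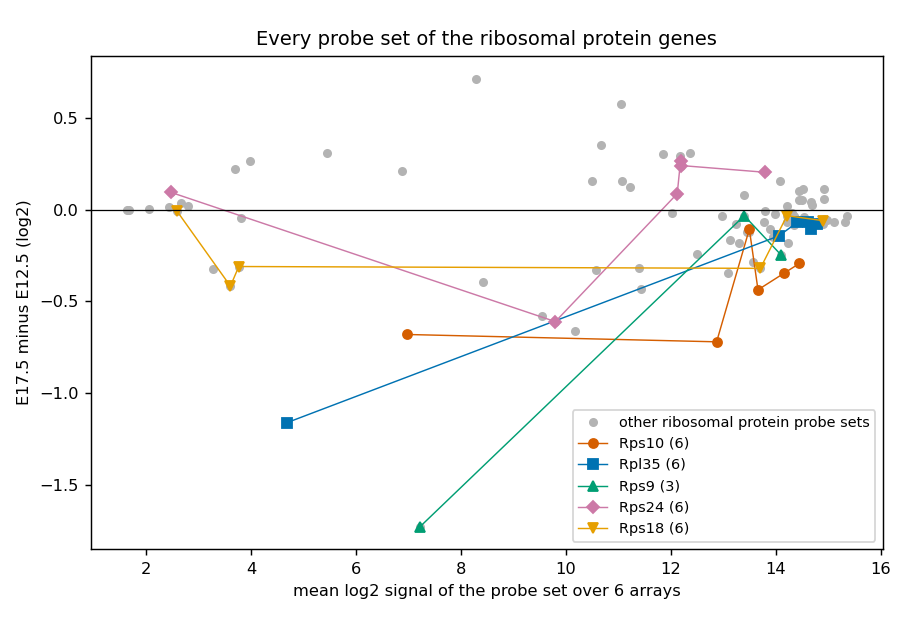
Difference between E17.5 and E12.5 (log2) against mean log2 signal for each of the 99 probe sets of the ribosomal protein genes, with the probe sets of Rps10, Rpl35, Rps9, Rps24 and Rps18 joined by lines. The brightest probe sets of these 5 genes lie between -0.29 (Rps10) and 0.20 (Rps24), and the lowest points are the dim probe sets of Rps9 at -1.73 and Rpl35 at -1.16.

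The median signal of the ribosomal protein genes was 14.21, 14.24 and 14.22 on E17.5 arrays and 14.18, 14.31 and 14.35 on E12.5 arrays. That of the other genes of mean signal 13 or more lay between 13.61 and 13.65. GCRMA normalizes arrays, so medians this close do not by themselves show an even RNA level. Some genes departed on both E17.5 C and E12.5 A from the other arrays of their age. Rps15 had 13.59, 13.60 and 13.11 at E17.5, against 12.79, 13.37 and 13.90 at E12.5. Rpl7a had 14.68, 14.68 and 14.08 at E17.5, against 14.08, 14.48 and 14.57 at E12.5. Rps24 and Rps19 were also lowest at each age on these arrays, and Rps9 was highest on both. Rps9 had 13.63, 13.62 and 14.66 at E17.5, against 14.43, 14.27 and 13.95 at E12.5.

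Over the 33 members of mean signal 13 or more, the deviation of E17.5 C from A and B and that of E12.5 A from B and C had a Pearson r of 0.75 and a Spearman rho of 0.54 across genes. Without the 2 genes that deviated most on E17.5 C, r was 0.72 (n = 31). Of the 33 genes, 11 deviated downwards on both arrays, 6 upwards on both and 15 in opposite directions. Over the 261 other genes of that signal r was 0.40. The relation was weak over all 40 members of mean signal 6 or more, with an r of 0.27, or 0.15 without the 2 genes that deviated most. There 19 genes deviated in opposite directions, and r was 0.37 over the 8717 other genes of that signal. Over all genes of mean signal 6 or more, deviations from the age means correlated by 0.37 for E17.5 C with E12.5 A. They correlated by 0.36 for E17.5 A with E12.5 B, and between -0.38 and 0.25 for the other pairs of different age. The 3 deviations of an age sum to 0 and E17.5 A and B were close to copies, so these correlations are not separate values. They do not show whether the relation is particular to E17.5 C and E12.5 A. The deviations of E17.5 C and E12.5 A share no array, genes are not independent replicates, and the values are a description. The SD of the difference between E17.5 C and E12.5 A was 0.11 over these 33 genes, less than for every pair of arrays of 1 age except E17.5 A and B. Over the other 261 genes it was 0.40. With arrays weighted by their agreement, E17.5 C received a weight of 0.14 against 4.97 for A and 3.24 for B. The E12.5 arrays received 0.39 (A), 0.24 (B) and 4.81 (C), so the weighted fit rested mostly on E17.5 A and B and on E12.5 C. In that analysis 1 ribosomal protein gene was called higher (Rpl14) and 13 lower, where 46.3% of all genes were called.

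**Figure D5:**
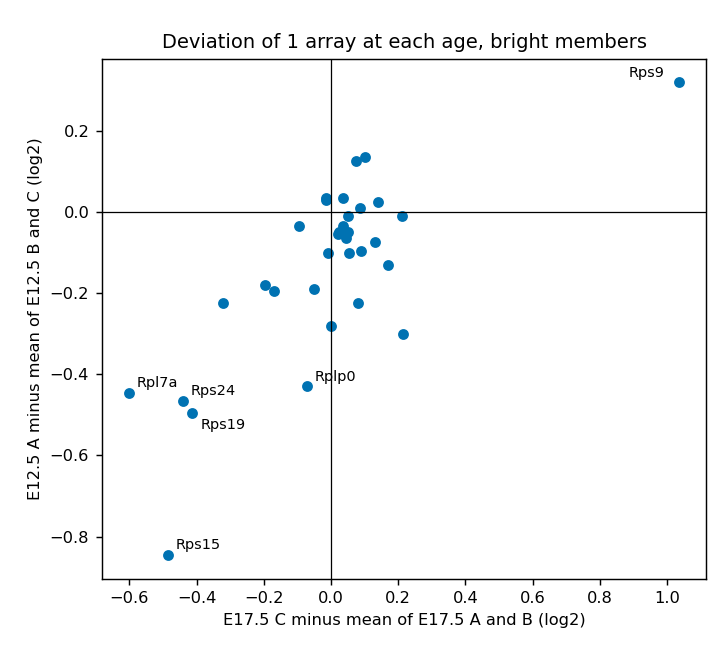
For the 33 ribosomal protein genes of mean signal 13 or more, the log2 signal on E17.5 C minus the mean of E17.5 A and B (horizontal) against that on E12.5 A minus the mean of E12.5 B and C (vertical). Rps15, Rpl7a, Rps24 and Rps19 lie low on both axes and Rps9 high on both, with r = 0.75 over the 33 genes.

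Genes with a role around the ribosome were read in the same analysis. Of 76 mitochondrial ribosomal protein genes, which build the separate ribosome of mitochondria, 1 rose and 12 fell (17.1% called). Over all genes 16.9% were called, 8.21% higher and 8.73% lower. The calls of this list leaned to the lower side, which was not tested. The median difference was -0.29, and 61 of the 76 values lay below 0, against 8048 of 18182 over all genes. The number that fell was 53 with array weights, where 46.3% of all genes were called. It was 2 with the mean of E17.5 A and B as 1 sample, where 10.2% of all genes were called. It was 1 without E17.5 B, 2 without E17.5 A, 3 without E12.5 C, 4 without E12.5 B and 20 without E17.5 C. Mrpl15, Mrpl43 and Mrps6 fell by 0.76, 0.70 and 0.69, and Mrps28 rose by 0.59. The sign of Mrpl15 turned with other probe sets of the gene. With E17.5 A and B averaged only Mrpl43 of these 4 was called. Of the chaperones that escort new ribosomal proteins, 0 rose and 2 fell of 14 (14.3% called), Grwd1 by 1.07 and Pdcd2l by 0.41. The count was 1 (Grwd1) with the mean of E17.5 A and B as 1 sample, and 1 when any array other than E17.5 C was left out.

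Among 50 translation factors 1 rose and 6 fell (14% called). With E17.5 A and B averaged 0 rose and 1 fell, Eif2b5. The number that fell was 0 without E17.5 B, 1 without E17.5 A or E12.5 C, 2 without E12.5 B and 12 without E12.5 A, and 26 with array weights. Eif4a2, a helicase of initiation, rose by 0.73, and Eif2b3, Eif3b and Eif2b5 fell by 0.97, 0.79 and 0.78. Eef1a1, the elongation factor whose mRNA also begins with a pyrimidine tract, had 14.95, 14.99 and 14.96 at E17.5, against 14.91, 14.91 and 14.90 at E12.5, with a difference of 0.06 (adjusted p = 0.762). Eef2 and Pabpc1, whose mRNAs carry such a tract too, differed by 0.15 and 0.06 without passing the test, and Eef1a2, the muscle and nerve form of the factor, by -0.03. Of 4 ribosomal proteins and paralogues outside the symbol rule, 0 were called, among them Rps3a1 (0.12), Rpl22l1 (0.06) and Fau (-0.28).

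Genes that set ribosomal protein synthesis were called in both directions, 5 higher and 3 lower of 36 (22.2% called). With E17.5 A and B averaged 3 were higher and 3 lower, and all 6 are named here. The number higher was also 3 without E17.5 A, E17.5 B, E12.5 B or E12.5 C, and the number lower was 6 without E12.5 A. Deptor, an inhibitor of mTOR, had 9.61, 9.59 and 9.58 at E17.5, against 6.28, 5.75 and 5.64 at E12.5, and rose by 3.70 (adjusted p = 0.000133). Sesn1, which restrains mTOR complex 1 when amino acids are short, had 12.22, 12.35 and 12.27 at E17.5, against 11.09, 10.75 and 10.50 at E12.5, and rose by 1.5 (adjusted p = 0.0012). Larp1b, a relative of Larp1, rose by 2.92, with an E12.5 mean of 3.36 in the low GCRMA range, and Sesn3 fell by 1.14.

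Mycn, a transcription factor that drives ribosome production, had 9.05, 9.13 and 8.87 at E17.5, against 11.38, 11.03 and 11.39 at E12.5, and fell by 2.25 (adjusted p = 0.000182). Myc lay lower by 0.94 without passing the test (adjusted p = 0.254), and E17.5 A and B lay above E12.5 A. Tia1, a binder of pyrimidine-tract mRNAs under stress, fell by 0.67. The dimmest probe sets of Sesn1, Mycn and Tia1 gave differences near 0 of the other sign. Over the alternatives the difference of Deptor went as low as 0.00 and that of Larp1b as low as 0.03. Deptor was called in 19 of 20 alternatives and Larp1b in 18 of 19. Larp1, Mtor, Eif4ebp1 and Eif4ebp2 were not called, with differences of 0.00, 0.11, 0.14 and -0.61. No test links these genes to the ribosomal protein genes, and the array does not measure translation or phosphorylation.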

How the data were processed

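Total RNA of sorted cells was amplified from the 3′ end and hybridised to 6 single-colour Affymetrix arrays, per the labels' protocols. The authors deposited 1 log2 signal per probe set and array, made with GCRMA, per the submitters' processing notes; its version is not given in the sources used here. Depth does not apply to arrays, and the number of arrays limits the precision.

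Names of probe sets came from the platform annotation, brought to RefSeq GRCm38.p6 symbols through the entrez ID. Of 44994 probe sets, 34909 had 1 symbol (34705 matched), 931 had several and 9154 were not named. Each gene was represented by the probe set of highest mean. Tests used limma 3.58.1 in R 4.3.3 (lmFit, eBayes with an intensity trend), with Benjamini-Hochberg adjustment over 18182 genes and a threshold of 0.05. The script was tested on simulated data. Where nothing says that replicates came from separate litters, p-values measure the spread between these arrays only.

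For arrays of the same replicate letter, deviations from the age means correlated by -0.38 (A), 0.25 (B) and -0.07 (C). The 3 deviations of an age sum to 0 and E17.5 A and B were close to copies, so these values do not settle whether the letters pair the arrays. The members, gene lists and tests were chosen with earlier results of these data known. Rps4l fits the symbol rule but is a pseudogene in RefSeq and was left out. The naming rule took called members, a fixed set of symbols, and the members of highest and lowest mean signal. Context lists were named by their 3 largest rises and falls and a fixed set. Another 15 members were named after their values were seen: Rpl7a, Rpl12, Rpl14, Rpl27, Rpl27a, Rpl35, Rpl37, Rps3, Rps9, Rps10, Rps15, Rps18, Rps24, Rps25 and Rps28. Other variance priors, array weights, probe set choices, filters, scalings, a replicate block and left-out arrays were tried, as the closing section gives. Figures were drawn with matplotlib 3.10.9.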

Additional observations from a re-analysis of the deposited data

How the results depend on the processing

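With 3 arrays per age, and E17.5 A and B close to copies, the counts turned on few genes. The number of ribosomal protein genes higher at E17.5 (0) was 1, Rpl14 each time, without the intensity trend, with array weights and with a further quantile normalization, and 0 to 1 when an array was left out (1 without E12.5 A). The number lower (1, Rps27l) was 0 with a robust variance prior, with a floor at 4, with E17.5 A and B averaged (10.2% of all genes called), at a threshold of 0.01 and without the paralogues. It was 0 to 1 when an array was left out, and the 1 was Rpl37 without E17.5 C. The paired fit, with the replicate block, gave 0 higher and 0 lower, and whether the letters pair the arrays is not known. It was 13 with array weights and 2 with the dimmest probe set of each gene (Rpl13a, Rpl35). It remained at 1, through Rps9, with the mean of the probe sets, and through Rpl35 with probe sets without a letter suffix. Chosen after the data were seen were each probe set on its own (2: Rpl13a, Rpl35), inclusion of Rps4l (2) and only members of mean 13 or more (0). The median difference of -0.05 was 0.02 over the 24 genes with a probe set without a letter suffix. With arrays centred on genes of mean 6 or more, centred on other genes as bright as the members or quantile normalized again it stayed between -0.06 and -0.04, and with only genes of mean 4 or more, or 6 or more, it was -0.06 with the counts as before. Among named genes called in the main analysis, direction turned for Mrpl15 with probe sets without a letter suffix (0.12) and with the dimmest probe set (0.0033). It also turned with the dimmest probe set for Sesn1 (-0.027), Mycn (0.0033) and Tia1 (0.047). Members that were not called changed sign too, such as Rps24 (-0.61 to 0.35 over the alternatives), Rpl22 (-0.17 to 0.31) and Rplp0 (-0.08 to 0.16). The cause was not tested. Of the single-gene values under alternatives, 1092 kept their side of the threshold, 87 lost a call and 30 gained one. Of the counts of the other gene lists, 128 stayed within 1.5 times, 54 fell further and 18 rose further.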

Other observations

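Rps4l, which matches the symbol rule and is listed by RefSeq as a transcribed pseudogene, showed a difference larger than that of any of the 45 genes. It had 8.09, 8.17 and 7.07 at E17.5, against 9.19, 10.24 and 10.01 at E12.5. Every fetal array lay below every embryonic array, and the difference was -2.04 ± 0.38 (SE), with an adjusted p of 0.0133 in limma. It was called in 20 of 20 alternatives, with adjusted p-values from 0.000104 to 0.0494. Rps4x, the X-linked gene of the protein, differed by 0.11. Only 1 probe set carries the symbol, and which transcripts it detects was not tested.

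Ribosomal protein symbols also appeared on 110 probe sets that carry several symbols, which name no single gene. Tested with all 35840 named probe sets, 3 of the 110 were called higher and 1 lower, and their median difference was 0.00. In the separate test of probe sets with 1 symbol, 11.3% of all were called. Of the 73 with a mean signal of 13 or more, limma called 0, also 0 at an unadjusted p under 0.05, with a median absolute difference of 0.05. No share over all probe sets of that signal is given for this test. In the separate test of genes, 32 of the 261 genes of that signal other than members were called, and 74 had an unadjusted p under 0.05.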
